A study of Rattus norvegicus with 4 samples.

Results

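The cytosolic ribosomal protein genes were taken from an RNA-seq count table of cultured rat Schwann cells (SCs) as the rows named Rpl or Rps with a number, together with Rplp0, Rplp1, Rplp2 and Rpsa. Rows that repeat a gene with a suffix and the S6 kinase genes, whose names also begin with Rps, were left out. This gave 77 of the 17949 genes in the table, 45 for proteins of the large subunit and 32 for proteins of the small subunit. Of these, 76 passed the filter of at least 10 counts in at least 2 samples and were tested, out of 12446 genes tested in all. The remaining member, Rps9, was listed at 0 in all 4 samples, as was a suffixed copy of its row.

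SCs are the glia that wrap and myelinate peripheral axons. Primary SCs of rat sciatic nerve were grown with serum, forskolin and heregulin-β1, infected with lentivirus in the presence of polybrene and sequenced after 48 hours. The Lenti-AS group (n = 2) expressed the Egr2-AS, an antisense RNA from the promoter of the myelination factor gene Egr2, and the Lenti-GFP group (n = 2) received the control virus with GFP. The reporter of the Egr2-AS vector is red rather than green, a further difference between the groups, and the labels call the samples biological replicates without naming separate animals or cultures. P-values therefore measure the spread between these samples, which may be technical.

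The cytosolic ribosome is built from ribosomal RNA and a set of proteins that are needed in equal numbers, most of which are present once in each particle. The small subunit binds the mRNA and reads its codons, and the large subunit joins the amino acids and passes the new chain through its exit tunnel. The mRNAs of ribosomal proteins are known for a 5′ terminal oligopyrimidine (TOP) tract, a run of C and T bases that begins with C at the very start of the transcript and places their translation under the control of mTOR through the binding protein LARP1. That control acts mainly on translation, which counts of total RNA do not measure.

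The start sites are shown here because the TOP tract is what the mRNAs of this family are known to share. Start sites were found for 62 of the 77 members (80.5%) among the RefSeq promoter sequences of the GRCr8 assembly, which is not the rn6 build of the count table. A C followed by at least 4 bases that are each C or T stood exactly at an annotated start in 23 of the 62 members (37.1%), against 854 of 27457 gene symbols in all (3.11%). By subunit, 16 of 37 large subunit genes (43.2%) and 7 of 25 small subunit genes (28.0%) had such a tract. Within 10 bases on either side of the start, where an annotated start may be off by a few bases, 47 of 62 members (75.8%) had the tract, against 31.3% of all symbols. The following stretches of 25 bases, read 5′ to 3′ on the strand of the gene, begin 10 bases before the annotated start, and capitals mark the tract. They comprise 8 members with a tract at the start whose values are described in the text, and Rpl23 and Rps23, which had no tract exactly at the start but had pyrimidine runs close by.
Rplp0, chr12:46718376-46718400, minus strand: caccgcacttCTCTCgccaggcgtc
Rplp1, chr8:71290858-71290882, minus strand: cgcatgtgatCCTTTCCTCagctgc
Rpl10, chrX:157205840-157205864, plus strand: gtgggagcgtCTCTTTTCCTCTggc
Rpl10a, chr20:6390523-6390547, plus strand: cttctgccttCTTTTCCggttcccg
Rpl22, chr5:168117951-168117975, plus strand: gcgcccccctCCCTTTCTgcctcct
Rpl37a, chr9:81748081-81748105, plus strand: cccgttgcgtCTCTTCCTCTTCggg
Rps15, chr7:10068101-10068125, minus strand: acaccgcttcCTTTTCCCagcagcc
Rps18, chr20:4933735-4933759, plus strand: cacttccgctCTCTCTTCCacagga
Rpl23, chr10:83272170-83272194, minus strand: cttcctttctgactctttccggacg
Rps23, chr2:23814507-23814531, plus strand: ccttcctgcctctcttctctctttc

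The 4 libraries held between 74024323 and 96185890 counts on genes, and values are given as CPM, the count of a gene per 1000000 counts of the library, whose size was scaled by the TMM method of edgeR. Lenti-AS 2 stood apart in the summed CPM of globin genes, at 3001 against 3.11 to 6.61 in the other samples. Lenti-AS 1 stood apart in a fibroblast list, whose summed CPM was 2480 against 419 to 1004 in the others, nearly all of it Col1a1. Of its 8 genes, 4 were tested, and all 4 were above the Lenti-GFP mean in Lenti-AS 1. In Lenti-AS 2, 2 of the 4 were below that mean. Dcn and Thy1, also of this list, were at or near 0 in every sample. The SC markers were expressed, with 10 of 11 listed markers present and a summed CPM between 9405 and 10845. Sox10 was at 77.1, 72.6, 163 and 61.2 CPM in Lenti-GFP 1, Lenti-GFP 2, Lenti-AS 1 and Lenti-AS 2. Of the 10 markers, 8 had an unadjusted p under 0.05 in edgeR, 5 higher and 3 lower, against 21.8% of all genes. Their log2 fold changes ran from -2.10 to 0.62, and 0 were called. A macrophage list summed to between 3.81 and 4.84 CPM. The part of these differences in the results was not tested. Values without Lenti-AS 1 or without Lenti-AS 2 are given beside many of the results whose direction or side of the adjusted p of 0.05 they changed. Egr2 itself was at 49.2, 42.1, 61.2 and 54.0 CPM (adjusted p = 0.152, edgeR). The strand setting of the counting is not given in the sources used here. Any reads of the Egr2-AS that fall on Egr2 exons could therefore not be told apart, and whether any do was not tested.

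None of the ribosomal protein genes passed the test of Lenti-AS against Lenti-GFP. In the quasi-likelihood test of edgeR with Benjamini-Hochberg adjustment over all genes, at an adjusted p under 0.05 and a fold of at least 1.3, 0 of 76 members were called in either direction, where 246 of the 12446 genes tested (1.98%) were called, 163 of them higher (1.31%) and 83 lower (0.667%). The smallest adjusted p of a member was 0.126. At an unadjusted p under 0.05 there were 12 members (15.8%), 11 lower and 1 higher, against 21.8% of all genes, of which 9.37% were lower and 12.5% higher. DESeq2 also called 0 members, where it called 3.92% of all genes higher and 1.12% lower. It gave 3 members, Rpl3, Rpl22 and Rps16, an adjusted p under 0.05 with a fold under 1.3, and 10.6% of all genes had an adjusted p under 0.05. In these bulk samples, fewer cells of a type and less RNA per cell cannot be told apart.

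The fitted log2 fold changes were small and lay mostly below 0. They ran from -0.33 for Rps20, whose value was -0.04 when the counts of its copy rows were added, to 0.33 for Rps4y2, with a median of -0.08 over the 45 large subunit genes and -0.10 over the 31 small subunit genes, against 0.01 over all genes tested. Below 0 were 34 of 45 large subunit genes and 23 of 31 small subunit genes, 75.0% of the members together, against 48.7% of all genes. For 49 of 76 members (64.5%), the 95% interval of the log2 fold change lay within a fold of 1.3 in either direction, which held for 44.4% of all genes. Under 10 CPM in every sample were 8 of the 76 members and 4377 of the 12446 genes tested, and genes of like counts were not compared. For the other 27 members, a change of that size in at least 1 direction remained within the interval.

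**Figure D1:**
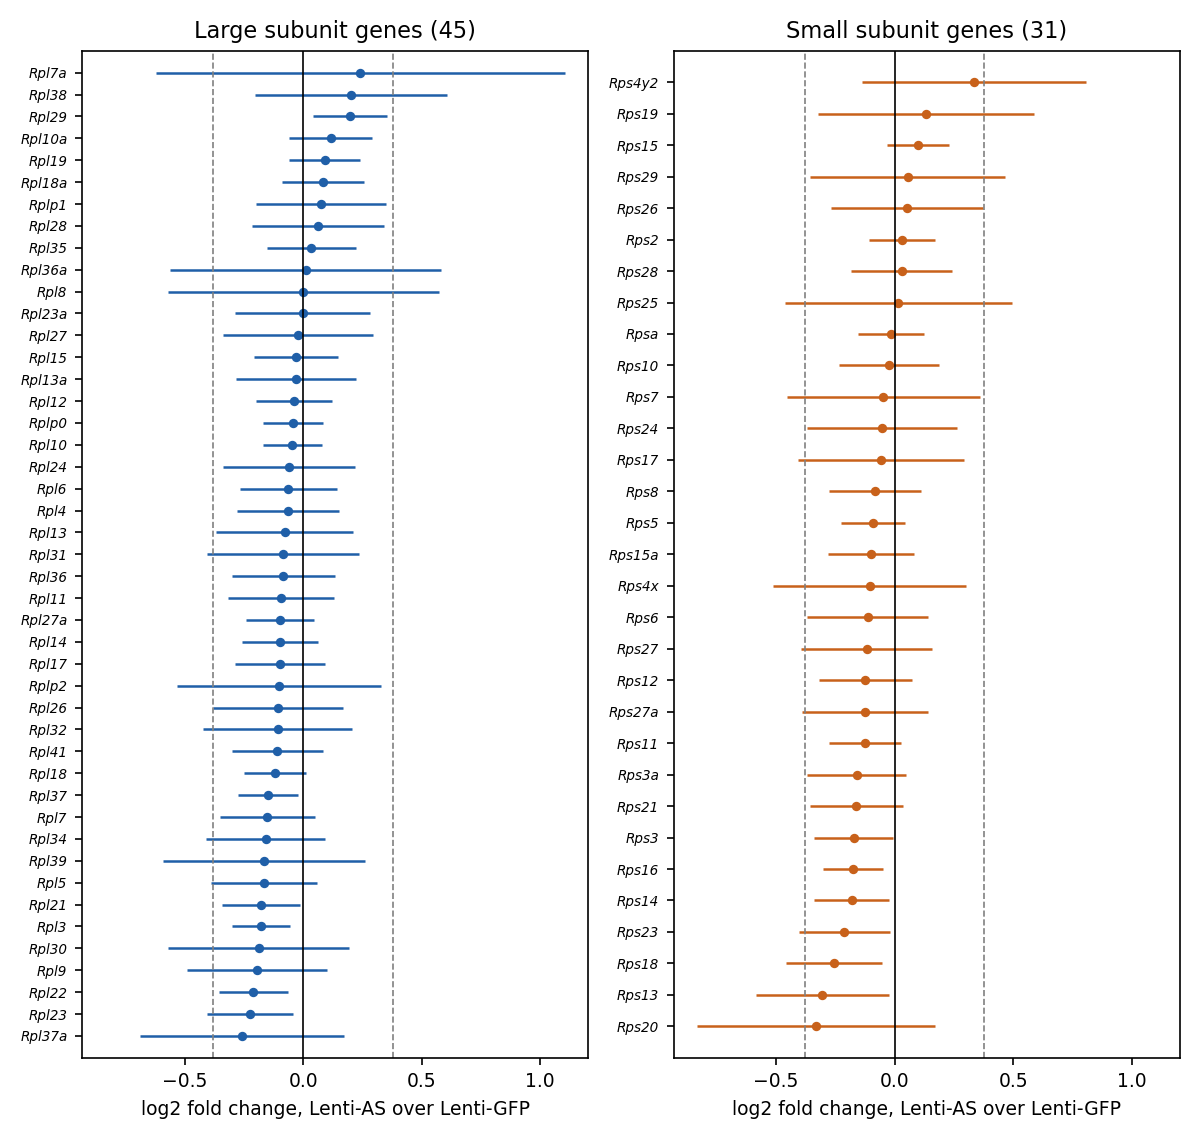
Fitted log2 fold changes of Lenti-AS over Lenti-GFP (horizontal axis) for the 45 large subunit genes (left) and the 31 small subunit genes tested (right), with 95% intervals as bars and a fold of 1.3 in either direction as dashed lines. All points lie between -0.33 and 0.33, inside the dashed lines, and 57 of the 76 lie below 0.

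The shift lay mainly in 1 of the 2 Lenti-AS samples. Relative to the mean of the Lenti-GFP samples, the median large subunit gene stood at 0.04 on the log2 scale in Lenti-AS 1 and at -0.19 in Lenti-AS 2, and the median small subunit gene at 0.02 and -0.20. Over all genes tested the same medians were -0.0032 and 0.0055. Lenti-AS 2 was below the Lenti-GFP mean in 68 of 76 members, and Lenti-AS 1 was above it in 44. Lenti-AS 1 exceeded Lenti-AS 2 in 68 of 76 members (89.5%), 42 of 45 in the large and 26 of 31 in the small subunit, while 50.7% of all genes did so. The globin-rich library was thus also the library with the lowest level of these transcripts. Scaled by library totals, the summed CPM of Lenti-AS over Lenti-GFP had a log2 ratio of -0.0352 for large and -0.0638 for small subunit genes. With Rpph1 and the globin genes left out of the totals, the ratios were -0.0434 and -0.072. The part of the globin counts in the level of Lenti-AS 2 alone was not tested.

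Without Lenti-AS 2, the medians turned to 0.04 for the large and 0.02 for the small subunit genes, 32 of 76 members were fitted below 0, and 1 member, Rpl38, was called higher and 0 lower, where 10.2% of all genes were called higher and 2.07% lower. An adjusted p under 0.05 was given to 15 members (25.3% of all genes). Without Lenti-AS 1, the medians were -0.19 and -0.20, 68 members were fitted below 0, and 4 members, Rpl30, Rpl39, Rps13 and Rps4x, were called lower and 0 higher, where 2.26% of all genes were called lower and 4.62% higher. An adjusted p under 0.05 was given to 36 members (20.1% of all genes). Of the members called here, rows that repeat the gene with a suffix held 49.6% of the counts of Rpl38, 60.7% of those of Rpl39 and 97.1% of those of Rps13. In these fits, here and below, the lone Lenti-AS sample is assumed to vary like the Lenti-GFP samples. Their p-values do not measure the spread between Lenti-AS samples.

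**Figure D2:**
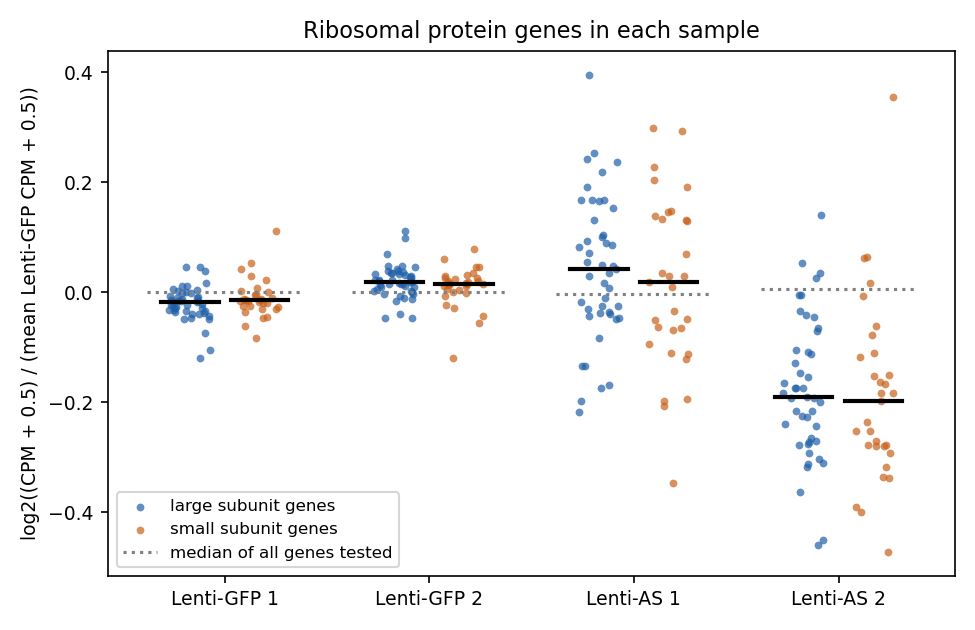
Level of each of the 76 tested ribosomal protein genes in each sample as the log2 ratio to the mean Lenti-GFP level, with 0.5 CPM added to both (vertical axis). Black bars are medians per subunit and dotted lines the median of all genes tested. The Lenti-AS 1 medians are 0.04 (large) and 0.02 (small), close to those of the Lenti-GFP samples, and the Lenti-AS 2 medians are -0.19 and -0.20.

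The spread between the Lenti-AS samples was wider for ribosomal protein genes than for genes in general, and that between the Lenti-GFP samples was narrower. The median absolute log2 difference between Lenti-AS 1 and Lenti-AS 2 was 0.20 over the members and 0.12 over all genes, and between the Lenti-GFP samples it was 0.04 and 0.08. Here too, genes of like counts were not compared. The widest gap was that of Rps25, a small subunit protein, at 65.7 and 66.0 CPM in Lenti-GFP and 81.1 and 52.1 CPM in Lenti-AS, so that Lenti-AS 2 was 35.8% below Lenti-AS 1 and the samples of Lenti-AS lay on either side of those of Lenti-GFP. Its fitted log2 fold change was 0.02 with an interval from -0.46 to 0.49, and it was -0.34 without Lenti-AS 1 and 0.30 without Lenti-AS 2. Rpl36a, Rpl39, Rps29, Rps7 and Rps4x, named after their values were seen, had gaps between 30.8% and 34.0% in the same direction. The reverse order, with Lenti-AS 2 above Lenti-AS 1, was found in 8 members, Rpl22, Rpl37, Rplp0, Rps4y2, Rps10, Rps16, Rps18 and Rps21.

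Levels were also summed over the member rows of a subunit, without the suffixed copy rows. In these sums, large subunit transcripts made up 15502 and 15868 CPM in Lenti-GFP 1 and 2 and 15807 and 14146 CPM in Lenti-AS 1 and 2. The Lenti-GFP mean was 15685 ± 258 and the Lenti-AS mean 14977 ± 1175 (SD, n = 2 each), a log2 ratio of -0.07, with overlapping groups (two-sided exact permutation p = 0.667). Small subunit transcripts made up 6781 and 6975 CPM in Lenti-GFP and 6759 and 6118 CPM in Lenti-AS, with means of 6878 ± 137 and 6438 ± 453 (SD, n = 2 each) and a log2 ratio of -0.10. Here Lenti-AS 1 lay 22.4 CPM below the lower Lenti-GFP sample and Lenti-AS 2 far below it, so the groups did not overlap, but the two-sided exact permutation p of 0.333 is the smallest that 2 samples against 2 allow. Lenti-AS 1 differed from the Lenti-GFP mean by 0.780% in the large and -1.74% in the small subunit sum, and Lenti-AS 2 by -9.81% and -11.0%. The rows of all members together, again without copy rows, took 2.21% and 2.25% of the counts in Lenti-GFP and 2.27% and 2.06% in Lenti-AS. With the copy rows added, the log2 ratios of the sums were -0.07 for the large and -0.10 for the small subunit.

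The balance between the subunits hardly differed between the groups. The ratio of large to small subunit counts, which needs no scaling of the libraries, was 2.29 and 2.27 in Lenti-GFP and 2.34 and 2.31 in Lenti-AS, with means of 2.28 ± 0.00799 and 2.33 ± 0.0189 (SD, n = 2 each). The Lenti-AS mean was 1.97% higher, a log2 ratio of 0.03, and the groups did not overlap (two-sided exact permutation p = 0.333, the smallest possible). The log2 ratio was 0.01 when the most counted row of each subunit, Rplp0 and Rps14, was left out.

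**Figure D3:**
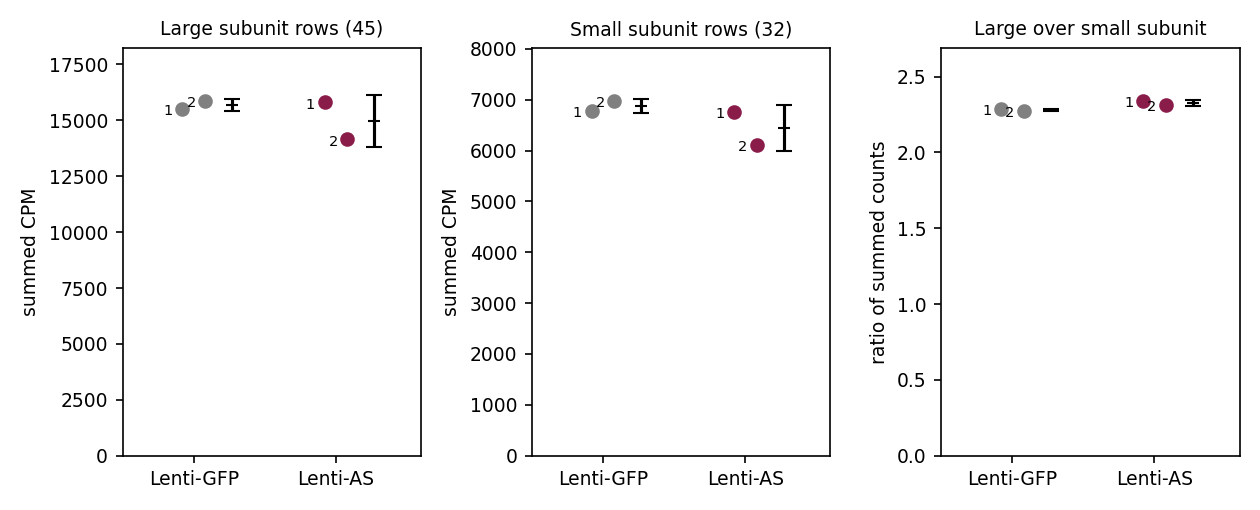
Summed CPM of the 45 large subunit rows (left) and 32 small subunit rows (middle) and the ratio of their summed counts (right) in each sample, numbered by replicate, with mean ± SD (n = 2) beside the points and axes from 0. Lenti-AS 2 is the lowest sample in both sums, at 14146 and 6118 CPM, while the ratio stays between 2.27 and 2.34.

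In the ribosomal stalk, the arm of the large subunit that recruits the elongation factors, Rplp0 anchors the acidic proteins Rplp1 and Rplp2, and Rpl12 sits at its base. Rplp0 was at 1734 and 1772 CPM in Lenti-GFP and 1695 and 1712 CPM in Lenti-AS, with Lenti-AS just below (log2 fold change -0.04, SE 0.05, edgeR adjusted p = 0.672). Rpl12 was as even, at 62.0, 61.0, 60.0 and 59.8 CPM in Lenti-GFP 1, Lenti-GFP 2, Lenti-AS 1 and Lenti-AS 2, the order used for all further values. Rplp1 was at 563, 580, 673 and 531 CPM and Rplp2 at 5.48, 5.76, 5.98 and 4.50 CPM. In both, Lenti-AS 1 was the highest sample and Lenti-AS 2 the lowest, so the groups overlapped. The log2 fold change of Rplp1 was -0.11 without Lenti-AS 1 and 0.24 without Lenti-AS 2 (edgeR adjusted p of 0.254 and 0.00472), and that of Rplp2 -0.32 and 0.09 (0.175 and 0.733). The median log2 fold change of the 4 stalk genes was -0.04.

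Rpl5 and Rpl11 travel with the 5S ribosomal RNA into the large subunit and, when not assembled, bind the p53 inhibitor MDM2. Rpl5 was at 563, 577, 555 and 462 CPM (log2 fold change -0.17, SE 0.09, edgeR adjusted p = 0.344), so that both Lenti-AS samples lay below both Lenti-GFP samples. Rpl11 was at 482, 504, 504 and 422 CPM and its groups overlapped. In both genes most of the difference lay in Lenti-AS 2. Without Lenti-AS 1 the log2 fold changes of Rpl5 and Rpl11 were -0.30 and -0.23, and without Lenti-AS 2 they were -0.04 and 0.03.

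At the exit tunnel of the large subunit, where the new chain leaves and meets its targeting and folding factors, the 7 listed genes had a median log2 fold change of -0.08, and 6 of the 7 had overlapping groups, as did 45.1% of all genes tested. Relative to the Lenti-GFP mean, their median was 0.09 in Lenti-AS 1 and -0.19 in Lenti-AS 2, so the direction rested on Lenti-AS 2. The exception was Rpl19, at 537, 545, 601 and 550 CPM, with Lenti-AS above Lenti-GFP (log2 fold change 0.09, edgeR adjusted p = 0.429). Rpl39, a small protein of the tunnel wall, was at 34.5, 36.8, 37.8 and 25.8 CPM, low in Lenti-AS 2 alone. On the log2 scale Rpl39 was at -0.47 without Lenti-AS 1 and at 0.09 without Lenti-AS 2.

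Among the other large subunit genes, the lowest fitted values were those of Rpl37a, Rpl23, Rpl22 and Rpl9. Rpl22, an RNA-binding protein at the surface of the subunit, was at 105 and 110 CPM in Lenti-GFP and at 92.8 and 93.9 CPM in Lenti-AS. The Lenti-AS samples lay close together and below both Lenti-GFP samples (log2 fold change -0.21, SE 0.06, edgeR adjusted p = 0.126). Without Lenti-AS 1 and without Lenti-AS 2 the value was -0.20 and -0.22. Rpl23, which like Rpl5 and Rpl11 can bind MDM2, was at 625, 645, 579 and 509 CPM (log2 fold change -0.22, SE 0.07, edgeR adjusted p = 0.167), with -0.32 without Lenti-AS 1 and -0.13 without Lenti-AS 2 (adjusted p of 0.000545 and 0.129). Rpl37a was at 2.51, 2.46, 2.10 and 2.05 CPM (-0.26 on the log2 scale, edgeR adjusted p = 0.427), where its 154 counts in Lenti-AS 2 limit the precision. Rpl9 was at 23.0, 21.6, 21.7 and 17.2 CPM, with Lenti-AS 1 inside the range of the Lenti-GFP samples. Its log2 fold change was -0.37 without Lenti-AS 1 and -0.04 without Lenti-AS 2 (edgeR adjusted p of 0.00567 and 0.805).

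The highest fitted values in the large subunit were those of Rpl7a, Rpl38, Rpl29 and Rpl10a. Rpl29 was at 273, 289, 335 and 310 CPM, above Lenti-GFP in both Lenti-AS samples, and was the single member with an unadjusted p under 0.05 on the higher side (log2 fold change 0.20, SE 0.06, edgeR adjusted p = 0.162). It was 0.14 without Lenti-AS 1 and 0.25 without Lenti-AS 2 (edgeR adjusted p of 0.116 and 0.00236). Rpl10a, at 416, 439, 488 and 438 CPM, and Rpl38, at 9.33, 10.0, 12.9 and 9.35 CPM, were highest in Lenti-AS 1, while Lenti-AS 2 lay within the Lenti-GFP range. Without Lenti-AS 1 their log2 fold changes were 0.04 and -0.05 (edgeR adjusted p of 0.754 and 0.840), and without Lenti-AS 2 they were 0.19 and 0.41 (0.0228 and 0.00916). Rpl7a was counted at 0.321, 0.464, 0.502 and 0.426 CPM in its own row, with most of its counts in suffixed copies. Rpl10, whose incorporation late in maturation prepares the large subunit for translation, was at 242, 242, 238 and 231 CPM (log2 fold change -0.05, edgeR adjusted p = 0.632).

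Rpl3, a core protein near the site of peptide bond formation, had the same smallest adjusted p as Rpl22 and was named after its values were seen. It was at 1619 and 1621 CPM in Lenti-GFP and at 1436 and 1427 CPM in Lenti-AS, so that replicates differed little and the groups did not overlap. Its log2 fold change was -0.18 with a 95% interval from -0.30 to -0.06 (edgeR adjusted p = 0.126), which lies within a fold of 1.3. Lenti-AS 2 was 0.604% below Lenti-AS 1 in this gene. Rpl37, a zinc-binding large subunit protein also named later, was at 378, 390, 342 and 351 CPM (log2 fold change -0.15, edgeR adjusted p = 0.181, and -0.17 with an adjusted p of 0.0444 without Lenti-AS 2).

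In the small subunit, the 11 listed genes of the head and the mRNA entry had a median log2 fold change of -0.09, and 6 had Lenti-AS below Lenti-GFP without overlap while 2 had it above, where 27.2% and 27.7% of all genes did so. Rps18, at the top of the head, was at 32.4, 33.3, 25.7 and 29.3 CPM, below Lenti-GFP in both Lenti-AS samples and lowest in Lenti-AS 1 (log2 fold change -0.26, SE 0.08, edgeR adjusted p = 0.158). It was -0.17 without Lenti-AS 1 and -0.35 without Lenti-AS 2 (edgeR adjusted p of 0.146 and 0.00135). Rps16, a head protein named after its values were seen, was at 504, 516, 444 and 459 CPM (log2 fold change -0.17, edgeR adjusted p = 0.139, and -0.20 with an adjusted p of 0.0186 without Lenti-AS 2). Rps20, whose fitted value was the lowest of all members, was at 3.06, 3.38, 2.92 and 2.18 CPM (-0.33 on the log2 scale, SE 0.20, edgeR adjusted p = 0.387), and its interval from -0.84 to 0.17 included 0. With its copy rows, which hold 91.8% of its counts, its log2 fold change was -0.04, and it was then not the lowest member.

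Rps15 and Rps19, both proteins of the head, had higher fitted values. Rps15 was at 364, 372, 403 and 385 CPM, above Lenti-GFP in both Lenti-AS samples (log2 fold change 0.10, edgeR adjusted p = 0.338). Rps19, the gene most often mutated in the red cell disorder Diamond-Blackfan anaemia, was at 2.01, 1.87, 2.20 and 2.05 CPM (0.13, edgeR adjusted p = 0.713). The 10 genes of that disorder's list that were tested had a median of -0.05, with 0.09 in Lenti-AS 1 and -0.25 in Lenti-AS 2 relative to the Lenti-GFP mean, and 8 of them had overlapping groups (45.1% of all genes). Rps29 was at 28.0, 27.1, 33.9 and 23.3 CPM, with Lenti-AS on either side of Lenti-GFP. Its log2 fold change was -0.24 without Lenti-AS 1 and 0.30 without Lenti-AS 2.

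At the platform and the mRNA exit, the median over 6 genes was -0.16, and 4 of the 6 had Lenti-AS below Lenti-GFP without overlap, as did 27.2% of all genes. Rps13 was at 12.9, 11.9, 10.8 and 9.27 CPM in its own row (log2 fold change -0.31, SE 0.11, edgeR adjusted p = 0.202). With its copy rows, which hold 97.1% of its counts, its log2 fold change was -0.09 (edgeR adjusted p = 0.435). In its own row it was -0.42 without Lenti-AS 1 and -0.20 without Lenti-AS 2 (edgeR adjusted p of 0.0149 and 0.224). Rps23, which lies in the decoding centre, was at 265, 265, 245 and 213 CPM (log2 fold change -0.21, SE 0.08, edgeR adjusted p = 0.196). It was -0.32 on the log2 scale without Lenti-AS 1 and -0.11 without Lenti-AS 2. Rps6, the target of the S6 kinases downstream of mTOR, was at 242, 247, 251 and 202 CPM, and Rps27a, which is made as a fusion with ubiquitin, at 24.9, 24.8, 25.2 and 20.4 CPM. In both of the latter rows, Lenti-AS 1 was slightly above Lenti-GFP and Lenti-AS 2 below it (edgeR adjusted p of 0.555 and 0.538). The copy row of Rps6, which holds 56.8% of its counts, was at 322, 323, 320 and 274 CPM, with both Lenti-AS samples below Lenti-GFP. With that row added, the log2 fold change of Rps6 was -0.12 (edgeR adjusted p = 0.478). In their own rows, Rps6 and Rps27a had log2 fold changes of -0.28 and -0.29 without Lenti-AS 1 and of 0.03 and 0.02 without Lenti-AS 2.

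Over all members, Lenti-AS lay below Lenti-GFP without overlap in 27 genes and above it in 5, and in 44 the groups overlapped. Among all genes tested, 27.2% lay below without overlap, 27.7% lay above and 45.1% overlapped. By TOP tract, the median log2 fold change was -0.10 for the 23 members with the tract exactly at an annotated start, -0.09 for the 38 without it and -0.06 for the 15 with no start in the sequence table.

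Ribosomal protein genes with other names were also measured. Rack1, a scaffold on the small subunit head, was at 721, 740, 710 and 665 CPM (log2 fold change -0.09). Fau, whose small subunit protein is made as a fusion with a ubiquitin-like protein, was at 52.0, 57.3, 63.4 and 46.6 CPM (0.01), with Lenti-AS on either side of Lenti-GFP. Neither was called (edgeR adjusted p of 0.416 and 0.978). Fau was at -0.23 on the log2 scale without Lenti-AS 1 and at 0.21 without Lenti-AS 2.

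The paralog Rpl22l1 was the single ribosomal protein gene outside the members that was called. It encodes a close relative of Rpl22, which is known to repress it. Rpl22l1 was at 50.1 and 48.5 CPM in Lenti-GFP and at 35.9 and 36.4 CPM in Lenti-AS, so that replicates lay close together and the groups far apart. The transcript was 0.733-fold the Lenti-GFP level (log2 fold change -0.45, SE 0.07, edgeR adjusted p = 0.0392), lower in 2 of 2 Lenti-AS samples. Without Lenti-AS 1 and without Lenti-AS 2 its log2 fold change was -0.44 and -0.46. With a replicate block it was -0.45 and not called (edgeR adjusted p = 0.105), in a fit that called 17 of all genes tested. Without Lenti-GFP 1 and without Lenti-GFP 2 it was -0.42 and -0.47, and it was called in neither fit. With the libraries scaled to the summed ribosomal protein counts it was -0.37 and not called (edgeR adjusted p = 0.143). Whether its change differed from that of Rpl22 was not tested.

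Other paralogs gave no call. Rps27l was at 204, 208, 222 and 191 CPM (log2 fold change 0.00, with -0.11 without Lenti-AS 1 and 0.11 without Lenti-AS 2) and Rpl36al at 140, 153, 141 and 132 CPM (-0.10). Rps4y2, a relative of Rps4x and a member by its name, was at 2.53, 2.08, 2.73 and 3.09 CPM. It had the highest fitted value of all members (0.33, SE 0.19, edgeR adjusted p = 0.359), and its Lenti-GFP samples differed widely. Rps4x was at 37.99, 39.1, 42.3 and 29.3 CPM, lowest in Lenti-AS 2 where Rps4y2 was highest. On the log2 scale Rps4x was at -0.397 without Lenti-AS 1 and at 0.135 without Lenti-AS 2. The rows of Rpl3l and Rpl35al1 were at 1.42 CPM or less in every sample (edgeR adjusted p of 0.878 and 0.520). Rpl3l was at -0.33 on the log2 scale without Lenti-AS 1 and at 0.11 without Lenti-AS 2. Rpl35al1 had more counts in its 4 suffixed copy rows than in its own, at between 3.18 and 10.02 CPM each, and with these added its log2 fold change moved from -0.28 to -0.17 (edgeR adjusted p = 0.392). The paralog Rpl39l was too low to be tested.

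**Figure D4:**
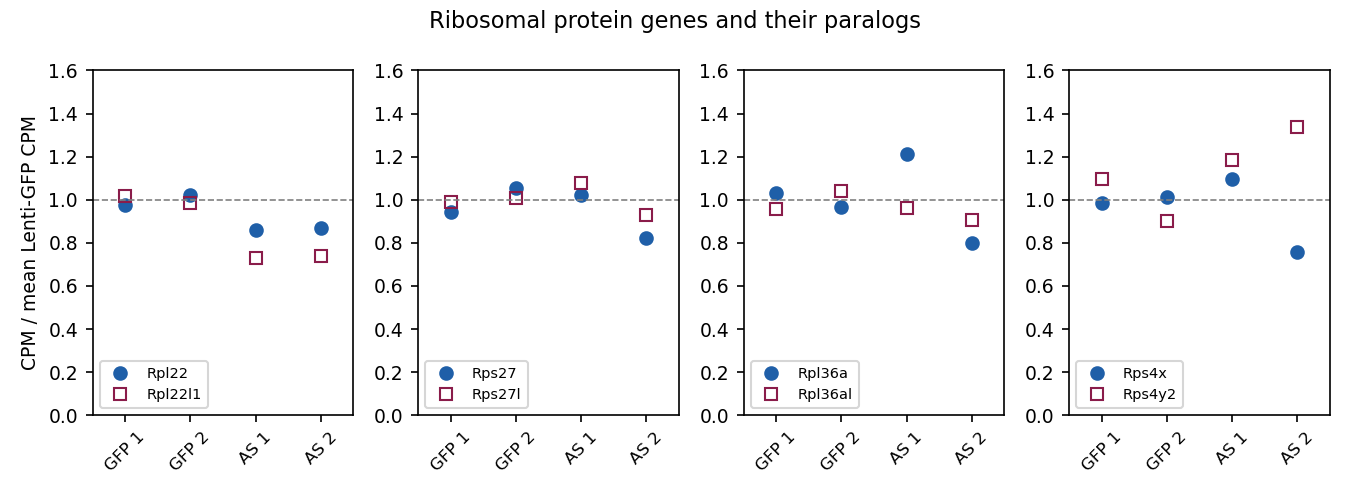
CPM of 4 ribosomal protein genes (circles) and a paralog of each (squares) in each sample, divided by the gene's mean over the Lenti-GFP samples, with 1 as a dashed line. Rpl22l1, at 35.9 and 36.4 CPM in Lenti-AS against 50.1 and 48.5 CPM in Lenti-GFP, is the lowest point in both Lenti-AS samples of its panel, and Rps4y2 is the highest in Lenti-AS 2 of its own.

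Genes that work with the ribosome were compared as lists, where 1.98% of all genes tested were called. Translation factors whose mRNAs also carry TOP tracts gave 0 calls among 16 genes and had a median of -0.02. The elongation factors Eef1a1 and Eef2 were at 2619, 2810, 2575 and 2777 CPM and at 3469, 3480, 3330 and 3579 CPM, with Lenti-AS 2 above Lenti-AS 1 in both. Eef1b2 and Eef1d, subunits of the exchange factor of Eef1a1, were lowest in Lenti-AS 2, at 220.5, 231, 216 and 203 CPM and at 246, 243, 230 and 208 CPM. In this list Lenti-AS 2 was below the Lenti-GFP mean in 10 of 16 genes, and Lenti-AS 1 exceeded Lenti-AS 2 in 9. Of 28 other translation factors, 0 were called (median -0.07), and of 2 tested host genes of small nucleolar RNAs, 0 (median -0.08).

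In the list of ribosome assembly factors, 1 of 90 genes was called, against 1.98% of all genes tested. This was Gar1, a protein of the particles that place pseudouridine in ribosomal RNA, at 9.29, 9.16, 13.2 and 13.8 CPM (log2 fold change 0.55, SE 0.09, edgeR adjusted p = 0.0499). The list as a whole had a median of -0.09, close to that of the ribosomal protein genes. Lenti-AS 1, however, exceeded Lenti-AS 2 in 36 of its 90 genes. Relative to the Lenti-GFP mean, the median of the list was -0.10 in Lenti-AS 1 and -0.07 in Lenti-AS 2. Lenti-AS lay below Lenti-GFP without overlap in 52 of the 90 and above it in 8, against 27.2% and 27.7% of all genes. Of 19 regulators of ribosomal protein synthesis, 1 was called, Eef2k, the kinase that inhibits the elongation factor eEF2, at 20.3, 19.1, 26.6 and 26.4 CPM (log2 fold change 0.43, SE 0.07, edgeR adjusted p = 0.0463). The median of that list was 0.16. Mtor was at 71.0, 59.2, 76.5 and 89.8 CPM (0.35, edgeR adjusted p = 0.170), and its partner Rptor at 15.6, 14.6, 21.9 and 17.9 CPM (0.40, edgeR adjusted p = 0.130). Gar1 and Eef2k missed the threshold in the replicate block, limma-voom and member-sum scaling fits and without either Lenti-GFP sample, and Gar1 also with a filter of 1 CPM, with log2 fold changes between 0.54 and 0.63 for Gar1 and between 0.39 and 0.51 for Eef2k.

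**Figure D5:**
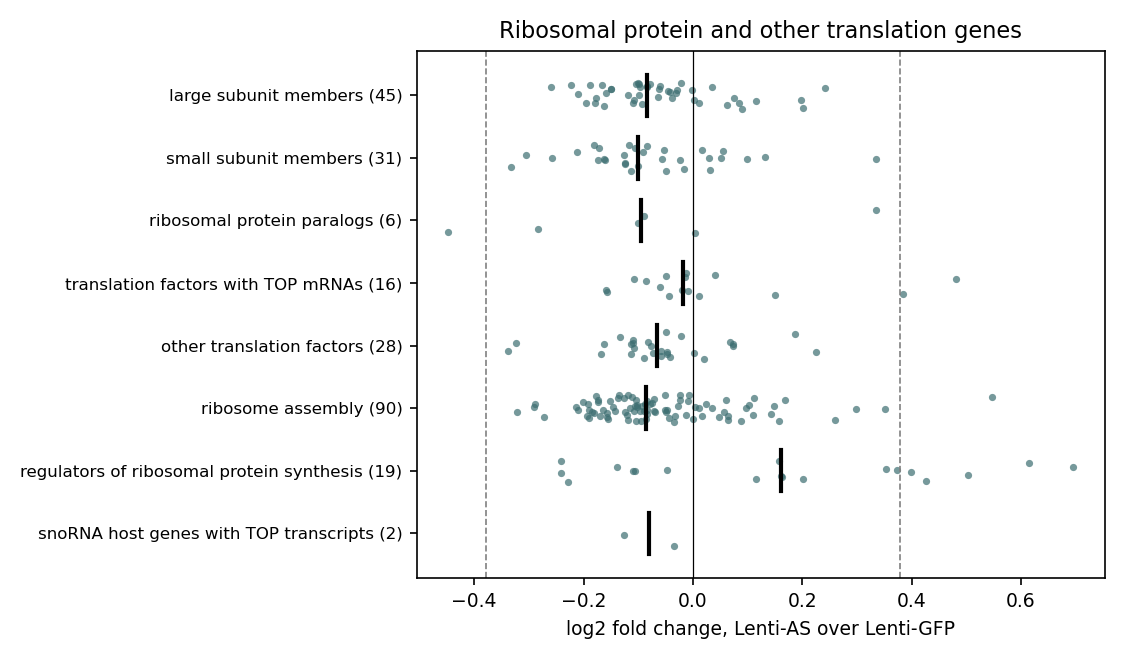
Fitted log2 fold changes of Lenti-AS over Lenti-GFP (horizontal axis) for the ribosomal protein genes and for lists of translation genes, 1 point per gene tested, with the number of genes in parentheses, medians as black bars and a fold of 1.3 as dashed lines. The medians of the ribosomal protein genes (-0.08 and -0.10) are close to that of ribosome assembly (-0.09), and that of the regulators is 0.16.

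The counts of some members are uncertain because their reads can be split among copies. Suffixed copy rows exist for 15 members, 22 rows in all, and 10 members had more counts in these rows than in their own. Their shares in copy rows ran from 51.4% for Rpl9 to 99.8% for Rpl8, with 97.1% for Rps13, 91.8% for Rps20 and 67.1% for Rps19. With the copies added to their gene, 0 members were called and 11 had an unadjusted p under 0.05, and the lowest log2 fold change was -0.26, that of Rpl37a. In that fit Rps20 moved from -0.33 to -0.04, Rps13 from -0.31 to -0.09 and Rpl38 from 0.20 to 0.07. The sign turned for Rpl7a (0.24 to -0.05), Rpl13 (-0.08 to 0.01) and Rpl8 (0.0015 to -0.12). Of the 77 members, 38 had at least 100 CPM in every sample and 9 had under 10 CPM in every sample, which includes Rps9.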

How the data were processed

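RNA-seq was performed by the authors on 4 samples in 50 bp paired-end runs. The authors deposited whole-number counts per gene, made with featureCounts on RefSeq genes of rn6 and not normalized. The study's methods name hisat2 as the aligner and the submitters' processing notes name GSNAP. Versions and the settings for strand and multiply aligned reads are not given in the sources used here. A row repeating the header was dropped.

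Rows reaching 10 counts in 2 or more samples (12446) entered the comparison of Lenti-AS with Lenti-GFP by edgeR 4.0.16 (R 4.3.3), using TMM factors, glmQLFit and glmQLFTest without a replicate term, and Benjamini-Hochberg adjustment over all genes tested. A call required an adjusted p under 0.05 and a 1.3-fold change or more. The biological coefficient of variation was 12.1%, and total counts of 74024323 to 96185890 set the counting precision. The script was tested on simulated data. Alternatives were DESeq2 1.42.0, limma-voom (limma 3.58.1), the likelihood ratio test, other scalings and filters, a replicate block, added copy rows and leaving out each sample. Scaling to the summed member counts was added after the data were seen.

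The members and lists were chosen with earlier results of these data known. Named with values were called members, in each subunit the 4 members with the highest and the 4 with the lowest fitted fold change, the stalk and 5S genes, Rps6, Rpl10, Rps27a, the member with the widest replicate gap in each group (with 0.5 CPM added), the paralogs and called list genes. Others are said to be named later or illustrate a list. The chi-square statistic per member between replicates was 9.94 (Lenti-GFP) and 194 (Lenti-AS), above the 1 that repeated sampling of a library gives. No protein sequences were used here, and 1 gene of a list is not reported here.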

Additional observations from a re-analysis of the deposited data

How the results depend on the processing

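No member was called under DESeq2, limma-voom, the likelihood ratio test, the 3 other scalings, both other filters, either other cut-off, added copy rows or scaling to the summed member counts. Over the fits that leave out a sample, the number called lower ran from 0 to 4 and the number called higher from 0 to 1, decided by Lenti-AS 1 and Lenti-AS 2. The median over large subunit genes ran from -0.19 to 0.04 over these fits and over small subunit genes from -0.20 to 0.02, and with library totals the medians were -0.05 and -0.07, with 0.04 over all genes. Scaled to the summed member counts, 42 of 76 members were below 0 and the median of all genes was 0.09. The log2 ratio of large to small subunit counts was 0.0098 without the most counted rows. With a replicate block the medians were -0.09 and -0.10 and 0 members were called, while 17 of all genes were called (3 higher, 14 lower). The deviations of samples that share a number had a correlation of -0.012 across genes and -0.11 across members. With 2 samples a group this cannot show whether the numbers pair the samples. Signs turned for Rpl7a with copies added (-0.051), for Rplp0 (0.038), Rpl12 (0.040) and Rpl10 (0.033) under member-sum scaling, for Rps25 with limma-voom (-0.011) and the block (-0.019), and for Rps27l (-0.0001) and Fau (-0.0056) with the block. Leaving out a sample in turn, the log2 fold change ran from -0.048 to 0.41 for Rpl38, -0.24 to 0.30 for Rps29, -0.11 to 0.24 for Rplp1, -0.32 to 0.088 for Rplp2, -0.23 to 0.030 for Rpl11, -0.28 to 0.034 for Rps6, -0.29 to 0.019 for Rps27a, -0.34 to 0.30 for Rps25, -0.11 to 0.11 for Rps27l, -0.33 to 0.11 for Rpl3l and -0.23 to 0.21 for Fau. The cause of these turns was not tested. With 2 samples a group, an exact permutation test cannot give a p under 0.333.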

Other observations

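The genes of the mitochondrial ribosome, a list chosen after values had been seen, are translated by the cytosolic ribosome and do not belong to the members. Of 71 tested, 0 were called, against 1.98% of all genes tested, and their median log2 fold change was -0.06. Lenti-AS 1 exceeded Lenti-AS 2 in 57 of the 71 (80.3%), against 50.7% of all genes. Relative to the Lenti-GFP mean, their median was 0.00 in Lenti-AS 1 and -0.10 in Lenti-AS 2 on the log2 scale.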
